A study of Mus musculus with 21 samples.

Results

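The 6 genes described here encode members of the subcortical maternal complex (SMC) of the oocyte: Ooep, Nlrp5, Tle6, Khdc3, Padi6 and Zbed3. They were chosen by gene name, each matched 1 of the 55335 gene identifiers in the deposited tables, and all 6 were found in all 21 libraries. RNA was measured in 12 oocyte and 9 granulosa cell libraries from ovaries of female mice. Young mice were 6 to 8 weeks old and gave 3 oocyte libraries and 1 granulosa cell library. Aged mice were 18 months old, were not transplanted, and gave 2 libraries of each cell type. The other aged mice received human umbilical cord mesenchymal stem cells (UC-MSCs) under the ovarian capsule 3 weeks before collection. Their cells were unsorted (Aged + Unsorted, 2 oocyte libraries and 1 granulosa cell library), sorted for high LRP1, the low-density lipoprotein receptor-related protein (Aged + LRP1high, 3 of each), or sorted for low LRP1 (Aged + LRP1low, 2 of each). The study's methods give the mice as ICR, an outbred stock, and the oocytes were labelled as mature. How many oocytes or mice went into a library was not given in the sources used here, so p-values measure the spread between these libraries, which may be partly technical.

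The SMC is a protein assembly that forms beneath the cortex of growing oocytes and persists in the outer cells of the early embryo. OOEP, NLRP5 and TLE6 make its core, to which KHDC3, PADI6 and ZBED3 are joined, and it belongs to the fibrous lattices that store proteins in the egg cytoplasm. Its genes are maternal-effect genes: they are transcribed in the oocyte, and in mice embryos of mothers that lack Ooep, Nlrp5, Tle6 or Padi6 stop at early cleavage.

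In the GRCm38 build, to which the deposited coordinates belong, the core genes lie at chr9:78376109-78378725, minus strand (Ooep), chr7:23385889-23441922, plus strand (Nlrp5) and chr10:81590904-81601073, minus strand (Tle6). Khdc3 lies at chr9:73101836-73104438, plus strand, Padi6 at chr4:140727355-140742643, minus strand, and Zbed3 at chr13:95323612-95337841, plus strand. All are annotated as protein coding, with 1 transcript for Ooep, 3 for Padi6 and Zbed3, 4 for Khdc3, 6 for Nlrp5 and 14 for Tle6. Khdc3 has exonic sequence within the span of Gm20509, a longer gene on the same strand, which was listed at 0 in all 21 libraries.

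The DNA just upstream of the starts of these genes is shown as background, and no link between it and their levels was tested. The stretches are those of RefSeq (GRCm38.p6) that lie before every annotated transcript of the gene and reach 100 bases, which Ooep, Nlrp5, Padi6 and Zbed3 offered. They are written 5′ to 3′ on the gene's strand. Capitals mark, on either strand, the elements bound by NOBOX, a homeobox factor of oocytes. These are TAATTG and its variant with a last A, written TAATTA, and the related element TAGTTG. The regions are chr9:78378726-78378838 (minus strand), chr7:23385639-23385888 (plus), chr4:140742644-140742893 (minus) and chr13:95323355-95323604 (plus).
Ooep: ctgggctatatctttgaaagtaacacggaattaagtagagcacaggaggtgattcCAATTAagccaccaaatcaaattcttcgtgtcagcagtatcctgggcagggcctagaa
Nlrp5: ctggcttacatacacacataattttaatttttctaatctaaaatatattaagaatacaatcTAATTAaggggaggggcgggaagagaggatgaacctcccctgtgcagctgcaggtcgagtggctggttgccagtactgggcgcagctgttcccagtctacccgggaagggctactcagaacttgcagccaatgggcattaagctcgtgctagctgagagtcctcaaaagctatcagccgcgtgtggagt
Padi6: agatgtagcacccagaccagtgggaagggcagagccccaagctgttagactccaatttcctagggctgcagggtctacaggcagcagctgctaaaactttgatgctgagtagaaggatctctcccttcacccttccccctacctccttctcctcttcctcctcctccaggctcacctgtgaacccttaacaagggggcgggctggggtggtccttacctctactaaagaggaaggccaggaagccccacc
Zbed3: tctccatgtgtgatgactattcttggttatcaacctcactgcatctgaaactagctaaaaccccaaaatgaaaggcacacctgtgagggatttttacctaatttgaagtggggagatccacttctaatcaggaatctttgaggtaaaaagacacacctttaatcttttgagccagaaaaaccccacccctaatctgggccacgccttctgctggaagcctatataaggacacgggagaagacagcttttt
The Ooep element reads TAATTG on the opposite strand, 195 bases before the RefSeq start, and the Nlrp5 element is TAATTA at 189 bases. In full RefSeq windows of 250 bases before to 50 after a start, Nlrp5 had a TAGTTG 98 bases before a second start, and Padi6 a TAATTG 8 bases after its start. Tle6, Khdc3 and Zbed3 had none of the 3 elements in their windows. Of all RefSeq windows of this length, 17.9% held at least 1. The E-box CANNTG, searched on both strands and bound by FIGLA, another oocyte factor, was in every window of the 6 genes and in 72.3% of all windows. These matches describe letters in the windows only.

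Before the values are read, some libraries stand apart. Against 8 oocyte markers that hold no SMC gene (Zp1, Zp2, Zp3, Gdf9, Bmp15, Dppa3, Oosp1 and H1foo), 8 oocyte libraries had marker medians of 84.9 to 1522 FPKM. The other 4, Young 1, Aged 1 and both Aged + LRP1low, had 1.18 to 11.8. In these 4, the median of 37 markers of granulosa, luteal, stromal, immune, endothelial and red blood cells was 0.681 to 5.50 FPKM, against 0 to 0.596 in the 8. The library labelled Granulosa Aged + Unsorted went against its label: its oocyte marker median was 1287 FPKM and none of 10 granulosa markers reached 10. Over 21767 genes its Spearman rho was 0.93 with Oocyte Aged + Unsorted 2 and at most 0.87 with any other library, a description across genes, which are not independent replicates. Both Granulosa Aged libraries had granulosa markers of at most 0.497 FPKM, so the defining markers of their labelled cell type were at or near 0. Granulosa Aged + LRP1high 2 and Aged + LRP1low 2 also had none at 10 FPKM, with highest values of 0.912 and 2.52, while the other 4 granulosa cell libraries had at least 1 marker above 10. Depth, computed from the ratio of coverage to FPKM, was 0.278 to 3.40 aligned gigabases for oocytes, 0.335 to 1.49 for granulosa cells, and 0.278 to 1.35 in the 4 oocyte libraries poor in oocyte markers. FPKM counts fragments per length of gene and per total of the library, and no counts were used, so counting error is unknown. In such bulk libraries, fewer oocytes and less RNA per oocyte cannot be told apart. Genes at 1 FPKM or more numbered 19690 in Young 1, 27970 in Aged 1, and 47920 and 38934 in Aged + LRP1low 1 and 2. The 8 oocyte libraries rich in oocyte markers had 3135 to 11916. The part of this widespread low signal in the member values of the 4 was not tested.

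Among the core genes, Ooep encodes a small protein with a KH-like fold of the core. Ooep stood at 0.672, 196 and 257 FPKM in the Young libraries, 12.7 and 459 in Aged, 791 and 689.5 in Aged + Unsorted, 352, 708 and 154 in Aged + LRP1high, and 3.30 and 8.35 in Aged + LRP1low. The lowest values were in the 4 libraries poor in oocyte markers, and the other 8 spanned 154 to 791 FPKM, a range of 5.14-fold. Nlrp5, also called Mater, encodes an NLR family protein with leucine-rich repeats and was found through an antigen of autoimmune oophoritis. Its values were 0.805, 22.9 and 173 FPKM in the Young libraries, 1.74 and 136 in Aged, 114 and 223 in Aged + Unsorted, 192, 178 and 34.7 in Aged + LRP1high, and 4.76 and 34.0 in Aged + LRP1low. Unlike Ooep, Nlrp5 in Aged + LRP1low 2 lay above a library rich in oocyte markers, Young 2, and just below Aged + LRP1high 3. This rests on 1 library, the shallowest, at 0.278 gigabases, where Nlrp5 coverage was 6.50, against 49.9 in Young 2. Gm25196, a microRNA gene inside Nlrp5 but outside its exons, was at 13.0 and 25.6 FPKM in the Aged + LRP1low libraries. It was listed at 0 in the 8 libraries rich in oocyte markers. The part of such signal in the Nlrp5 value was not tested. Tle6 encodes a member of the Groucho/TLE corepressor family that in the oocyte acts in the cytoplasm. Measured Tle6 levels were 1.22, 432 and 205 FPKM in the Young libraries, 27.6 and 400.3 in Aged, 97.2 and 456 in Aged + Unsorted, 409, 886 and 347 in Aged + LRP1high, and 5.74 and 8.96 in Aged + LRP1low. By FPKM its highest library was Aged + LRP1high 2, and within Aged + Unsorted its 2 values differed more than those of Ooep. By coverage, not adjusted for depth, Tle6 was highest in Aged + Unsorted 2, at 824 against 522 in Aged + LRP1high 2.

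Khdc3, also called Filia, encodes a KH domain protein that binds NLRP5 and is known for keeping chromosome number correct in early embryos. It was measured at 2.77, 20.2 and 367 FPKM in the Young libraries, 18.9 and 875 in Aged, 472 and 1115 in Aged + Unsorted, 434, 184 and 7.61 in Aged + LRP1high, and 6.24 and 12.05 in Aged + LRP1low. Khdc3 was the most uneven member: over the 8 libraries rich in oocyte markers it spanned 146-fold, against 41.4-fold for Padi6 and 5.14 to 9.76-fold for the other 4, and Aged + LRP1high 3 lay between the Aged + LRP1low libraries. Padi6 encodes a peptidylarginine deiminase family protein needed for the cytoplasmic lattices. Padi6 levels were 0.695, 14.8 and 310.4 FPKM in the Young libraries, 18.3 and 388 in Aged, 311 and 614 in Aged + Unsorted, 391, 444 and 154 in Aged + LRP1high, and 8.45 and 5.20 in Aged + LRP1low. Apart from Young 2, the 7 other libraries rich in oocyte markers lay between 154 and 614 FPKM. Zbed3 encodes a zinc finger protein known in other cells as an Axin-binding regulator of Wnt signalling, and in the early embryo for the symmetry of cleavage. For Zbed3 the values were 4.73, 411 and 1717 FPKM in the Young libraries, 57.5 and 1301 in Aged, 1675 and 1862 in Aged + Unsorted, 2139, 1202 and 782 in Aged + LRP1high, and 6.62 and 9.34 in Aged + LRP1low. This gene had the highest FPKM of the 6 in 7 of the 8 libraries rich in oocyte markers, Young 2 being the exception.

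**Figure D1:**
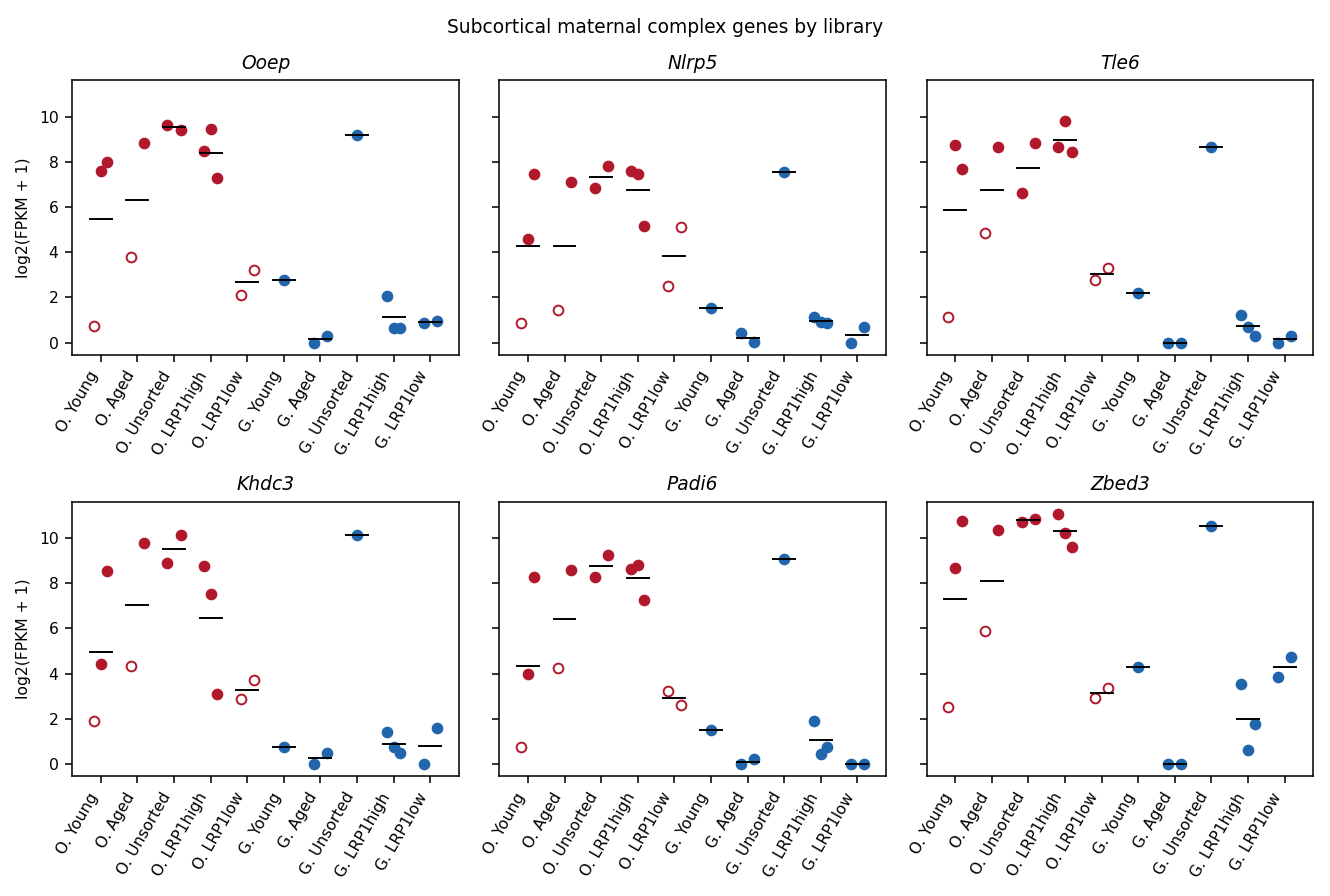
Level of each SMC gene in every library, on a log2(FPKM + 1) axis, by group (O., oocytes, red; G., granulosa cells, blue; transplanted groups are named by the cells given). Open circles are the 4 oocyte libraries with the lowest oocyte markers, black lines are group means of the plotted values, and the single G. Unsorted library sits at oocyte levels for all 6 genes.

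Read across groups, Aged + Unsorted had the highest mean for 5 of the 6 genes and Aged + LRP1high for Tle6, while Aged + LRP1low had the lowest mean for all 6. The mean for Ooep ran from 740.4 ± 72.0 FPKM (SD, n = 2) in Aged + Unsorted through 405 ± 280.4 FPKM (SD, n = 3) in Aged + LRP1high, 236 ± 315 FPKM (SD, n = 2) in Aged and 151 ± 134 FPKM (SD, n = 3) in Young to 5.83 ± 3.57 FPKM (SD, n = 2) in Aged + LRP1low. For Zbed3 the means were 1769 ± 133 FPKM (SD, n = 2), 1374 ± 694 FPKM (SD, n = 3), 711 ± 895 FPKM (SD, n = 3) in Young, 679 ± 879 FPKM (SD, n = 2) in Aged and 7.98 ± 1.93 FPKM (SD, n = 2). Neighbouring groups in these orders overlapped for every member, with the single exception of Zbed3 in Aged and Aged + LRP1low, whose libraries did not overlap. For the Young and the Aged group the SD was of the size of the mean or above it for Ooep and Zbed3, and 1 library of each group was poor in oocyte markers.

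Which member was the most abundant depended on the deposited column. Over the 8 libraries rich in oocyte markers, Zbed3 made up 33.4% to 56.7% of the summed FPKM of the 6 genes (median 43.0%). By coverage, the mean read depth over the gene, Zbed3 made up 10.3% to 21.9% (median 15.7%) and was the highest in none of the 8. Ooep was the highest by coverage in 5 of the 8, Padi6 in 2 and Khdc3 in 1. Both columns are per length, but a unit of Zbed3 FPKM carried 0.152 times the coverage of a unit of Ooep FPKM in each of the 8. For Tle6 this factor ran from 0.154 to 0.635 between libraries, and was lowest in Young 2, the library where Tle6 had the highest FPKM of the 6. The cause of these factors was not tested. Nlrp5 had the smallest share by FPKM in 5 of the 8 libraries, at 2.09% to 5.71% of the FPKM and 4.51% to 9.41% of the coverage. The share of Khdc3 by FPKM ran from 0.514% in Aged + LRP1high 3 to 24.6% in Aged 2.

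**Figure D2:**
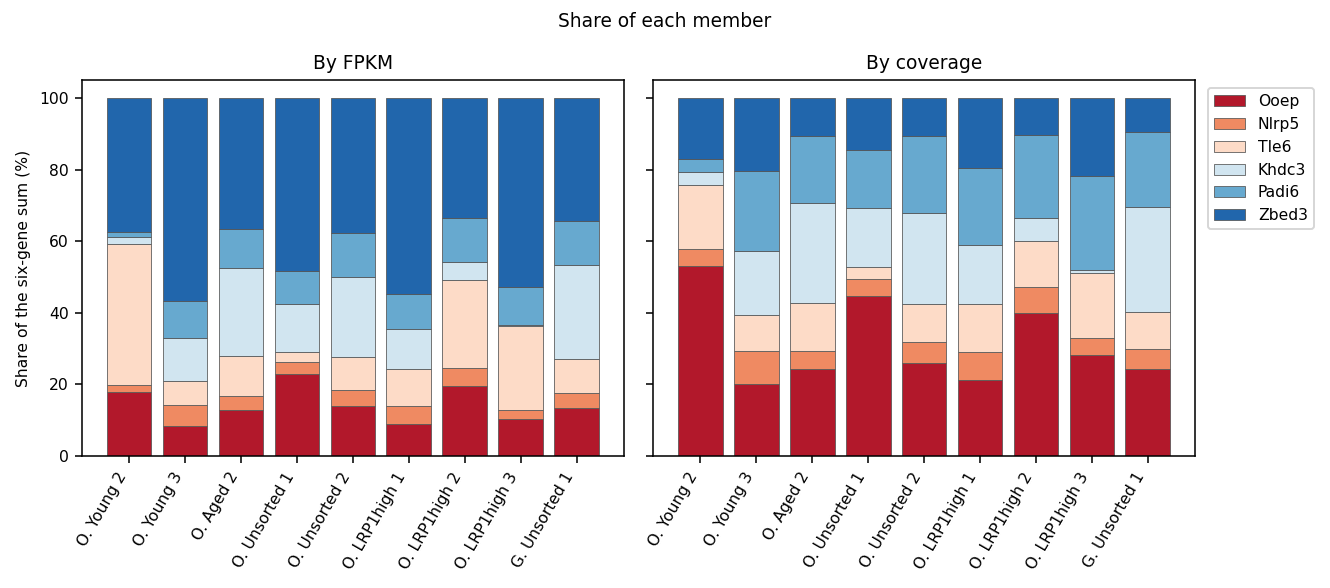
Share (%) of each member in the sum of the 6 SMC genes, by FPKM (left) and by coverage (right), in the 8 oocyte libraries rich in oocyte markers and in the library labelled Granulosa Aged + Unsorted (G. Unsorted). Zbed3, dark blue at the top, takes 33.4% to 56.7% of the FPKM in the 8 oocyte libraries and 10.3% to 21.9% of the coverage.

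Among all protein-coding genes of a library, the 6 members ranked near the top wherever oocyte markers were high. In the 8 libraries their FPKM lay at or above the 89.5 percentile (median 99.5), and together they made up 0.348% to 1.09% of the summed FPKM of all genes. In 45 of 48 values a member exceeded all 37 markers of other cell types in the same library, the exceptions being Nlrp5, Khdc3 and Padi6 in Young 2. In the 4 libraries poor in oocyte markers this held for 5 of 24 values, 4 of them in Aged 1 and the fifth Nlrp5 in Aged + LRP1low 2. There the percentiles ran from 23.7 to 99.7. Divided by the oocyte marker median of its library, the median of the 6 members was 0.395 to 0.561 in 7 of the 8 libraries and 1.29 in Young 2. The same ratio was 0.861 to 1.57 in the 4 poor libraries. In the Aged + LRP1low libraries the member medians, 5.99 and 9.15 FPKM, stood beside medians over all protein-coding genes of 5.22 and 3.81. The member percentiles were 23.7 to 79.8 in Aged + LRP1low 1 and 67.1 to 99.7 in Aged + LRP1low 2. In the 8 libraries rich in oocyte markers the protein-coding median was 0 to 0.434. The part of oocyte RNA content in the SMC levels was not tested.

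**Figure D3:**
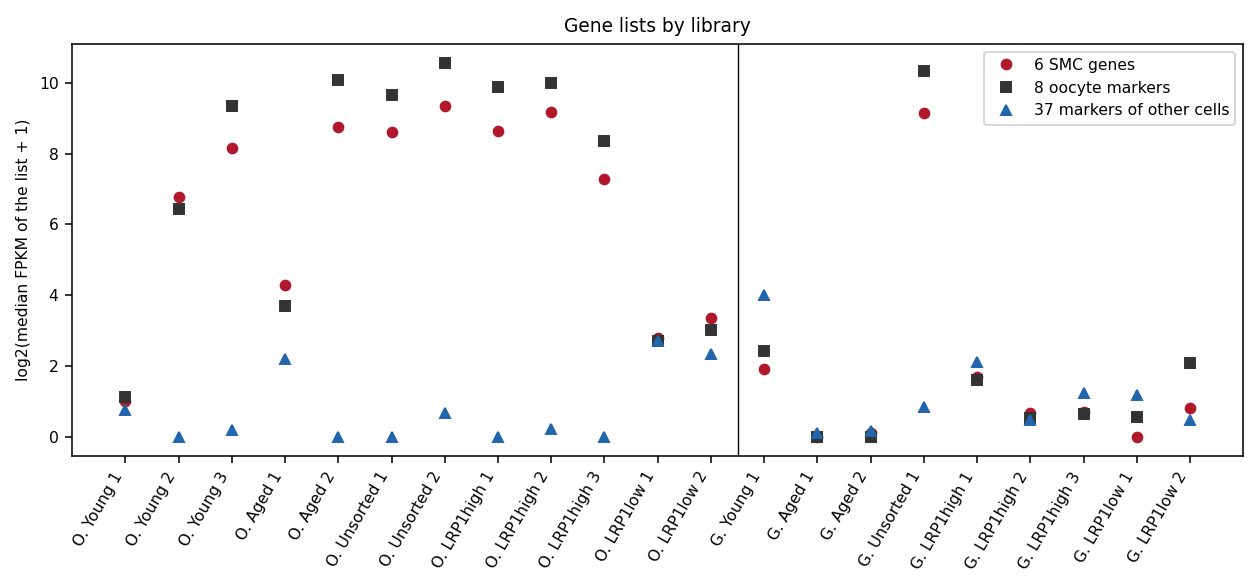
Median FPKM of the 6 SMC genes (red circles), 8 oocyte markers (dark squares) and 37 markers of other ovarian and blood cells (blue triangles) in each library, as log2(median + 1), with oocyte libraries left of the line and granulosa cell libraries right. In both Aged + LRP1low oocyte libraries the 3 medians lie close together, and in the G. Unsorted library they are spread as in oocytes.

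The first comparison asked how the SMC genes of oocytes differed with age. None of the 6 passed the test between Aged and Young oocytes, where 0.0964% of 28004 genes did, and the libraries of the groups overlapped for all 6. To be called, a gene had to differ by over 1.5-fold with an adjusted p under 0.05 in limma, fitted to log2(FPKM + 1) of all 12 oocyte libraries together. No member had an unadjusted p under 0.05, at which 8.43% of all genes were higher by over 1.5-fold. The changes were -0.015 to 2.10 on that scale, with adjusted p of 0.594 to 1, beside a median of 0.94 over all genes. Khdc3 had the change furthest from 0, 2.10 on the log2(FPKM + 1) scale (SE 2.13, adjusted p = 0.634 by limma), with a 95% interval of -2.59 to 6.78. For Nlrp5 it was -0.015, with an interval of -4.27 to 4.23. With 2 Aged and 3 Young libraries these intervals leave room for large changes in either direction.

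The next comparisons asked whether the levels differed after transplantation. In Aged + Unsorted against Aged oocytes, none of the 6 members and 0% of all genes passed by limma, and 0 members had an unadjusted p under 0.05, at which 1.70% of all genes were higher. The differences of the 6 were 0.98 to 3.22, all above 0, beside a median of -0.86 over all genes. Ooep (3.22, adjusted p = 0.440) and Zbed3 (2.68, adjusted p = 0.479) were higher in both Aged + Unsorted than in both Aged libraries, as 10.3% of all genes were. In Aged + LRP1high against Aged oocytes, none of the 6 passed, beside 0.771% of all genes, and all 6 overlapped. Again none had an unadjusted p under 0.05, at which 0.925% of genes were higher. Khdc3 had a value of -0.58 and the other 5 members 1.79 to 2.47, with adjusted p of 0.443 to 0.936 over the 6 and a median of -1.05 over all genes. Both comparisons share the 2 Aged libraries, and without Aged 1 the value was below 0 for Tle6 and Khdc3 in the first and for all members but Tle6 in the second, at -0.44 for Ooep and -0.043 for Zbed3 in the second. The oocyte markers, which hold no member, had medians of 3.23 and 2.41 in these comparisons.

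In Aged + LRP1low against Aged oocytes, again none of the 6 members passed, beside 3.17% of all genes in either direction and 0.0750% in the lower one. Ooep, Tle6, Khdc3, Padi6 and Zbed3 each lay lower in both Aged + LRP1low libraries than in both Aged libraries, 5 of 6 members against 9.55% of all genes. Zbed3 differed by -4.96 on the log2(FPKM + 1) scale (SE 2.17, adjusted p = 0.328 by limma), and its unadjusted p was 0.0430. It was the 1 member under 0.05 by that measure, as were 0.953% of all genes in the lower direction. The other 4 of these 5 ranged from -3.77 to -3.50, while Nlrp5 was at -0.45. Without Young 1 and Aged 1, the values were -6.18 for Ooep, -5.61 for Tle6, -5.67 for Padi6 and -7.20 for Zbed3. This alternative was chosen after the data were seen, leaves 1 Aged library and assumes it varies like the other groups. It sets 1 library rich in oocyte markers against 2 poor in them, so lower values were built into the choice. The 8 oocyte markers had a median of -3.63 against 0.68 for all genes, and 5 of the 8 did not overlap in the lower direction.

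**Figure D4:**
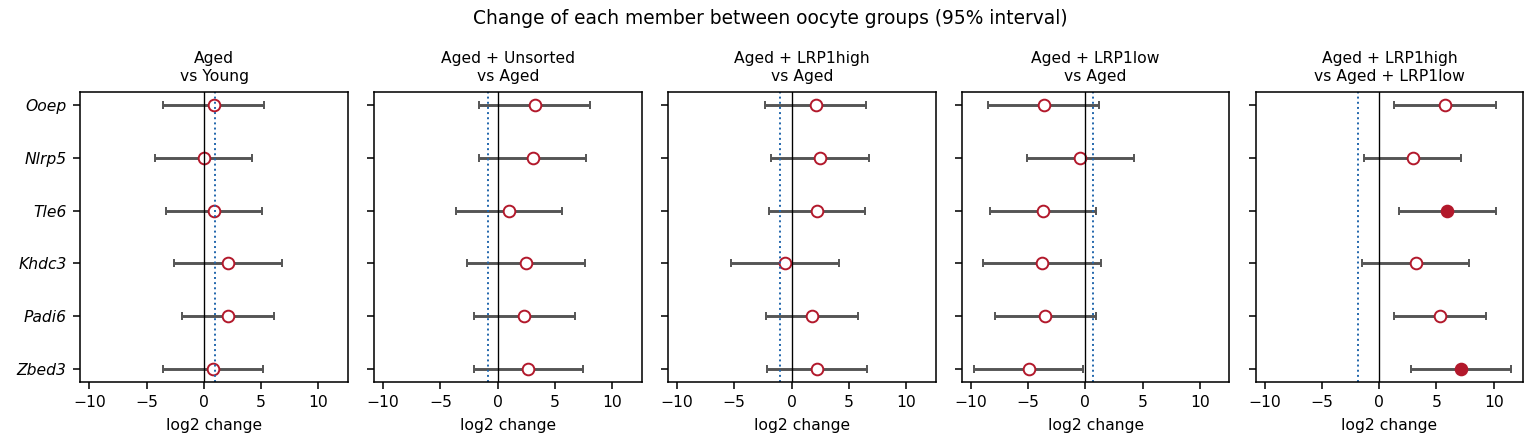
Change of each SMC gene in the 5 oocyte comparisons, as the difference of mean log2(FPKM + 1), first group minus second, with bars for the 95% interval of the limma fit. Filled points passed the test (Tle6 and Zbed3 in Aged + LRP1high vs Aged + LRP1low), and the dotted blue line is the median change of all 28004 genes tested.

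Between the groups that received sorted cells, Tle6 and Zbed3 were higher in Aged + LRP1high than in Aged + LRP1low oocytes. These were 2 of 6 members called higher, beside 1.21% of all genes called in that direction. Zbed3 differed by 7.15 on the log2(FPKM + 1) scale (SE 1.98, adjusted p = 0.0333 by limma), with a 95% interval of 2.80 to 11.51. Tle6 differed by 5.94 on the log2(FPKM + 1) scale (SE 1.92, adjusted p = 0.0454 by limma), with an interval of 1.71 to 10.16. Padi6 at 5.29 (adjusted p = 0.0519 by limma) and Ooep at 5.74 (adjusted p = 0.0540) missed the threshold narrowly, and Khdc3 and Nlrp5 were at 3.19 and 2.92 (adjusted p = 0.241 and 0.237). By unadjusted p, 4 members and 3.17% of all genes were higher. All 3 Aged + LRP1high libraries lay above both Aged + LRP1low libraries for every member but Khdc3, 5 of 6 against 6.82% of all genes. Across all genes the shift was the other way, with a median of -1.89 and 24.8% called lower, and all 8 oocyte markers lay apart in the higher direction, with a median of 6.10. Leaving out any 1 of the 5 libraries, Aged + LRP1high 1, 2 or 3 or Aged + LRP1low 1 or 2, left 0 members called, with adjusted p for Zbed3 of 0.0741 to 0.234. When each library was expressed relative to the median of its oocyte markers, 0 members were called and the values were 0.69 for Zbed3, -0.52 for Tle6, -0.72 for Ooep, -1.17 for Padi6, -3.27 for Khdc3 and -3.54 for Nlrp5, below 0 for all but Zbed3. Depth also differed, at 2.29 to 3.15 gigabases in Aged + LRP1high and 0.278 and 0.515 in Aged + LRP1low, and the part of depth and of oocyte RNA content in the difference was not tested.

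Genes whose products work with the SMC or its lattices were listed as partners: Nlrp2, Nlrp4f and Nlrp14, the chromatin factor Uhrf1, the ubiquitin pathway genes Skp1a and Ube2d3, and cofilin, Cfl1. In Aged + LRP1high against Aged + LRP1low oocytes, 4 of the 7 were called higher, beside 1.21% of all genes, and none lower. All 7 lay apart in the higher direction, beside 6.82% of all genes. The median of the 7 was 4.98, beside 6.10 for the 8 oocyte markers, which all lay apart in that direction too. The partner, paralog and maternal-effect lists were chosen with earlier results of these data known, so their shares are not independent support. Nlrp14, an NLR family gene of germ cells, stood at 941, 703 and 1227 FPKM in Aged + LRP1high and 4.13 and 6.02 in Aged + LRP1low and differed by 7.28. Skp1a, a subunit of SCF ubiquitin ligases, was at 4318, 14349 and 4087 FPKM in Aged + LRP1high and 4.96 and 7.71 in Aged + LRP1low, above every member in the Aged + LRP1high libraries but not in the Aged + LRP1low ones, a difference of 9.78. The remaining calls were Uhrf1 (5.23) and Cfl1 (4.21), while Nlrp4f, Nlrp2 and Ube2d3 did not pass. In each of the other 4 oocyte comparisons, 0 of the 7 partners were called in either direction. Against Aged, the partners had medians of 2.37 in Aged + Unsorted, 2.21 in Aged + LRP1high and -2.84 in Aged + LRP1low, beside 2.57, 2.14 and -3.68 for the 6 members.

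Of 16 paralogs listed (Tle1, Tle2, Tle3, Tle4, Tle5, Padi1, Padi2, Padi3, Padi4, Khdc1a, Khdc1b, Khdc1c, Dppa5a, Zbed4, Zbed5 and Zbed6), 15 were tested in oocytes. Tle2, a corepressor paralog of Tle6, was at 0.719 FPKM or less in the 8 libraries rich in oocyte markers, and Padi1, a deiminase of skin, at 0.205 or less. In Aged + LRP1high against Aged + LRP1low, Tle2 (-2.86), Tle3 (-2.90) and Padi1 (-2.49) were called lower, the direction of 24.8% of all genes. Khdc1a (4.35), an oocyte KH domain gene, was called higher, the direction of 1.21% of all genes. Khdc1b, its neighbour, resembled the members, with 110.5 to 671 FPKM in the 8 libraries and 0.851 to 15.7 in the other 4. No paralog was called in the other oocyte comparisons. Among 10 other maternal-effect genes (Zar1, Npm2, Btg4, Zfp36l2, Bnc1, Smarca4, Ube2a, Tet3, Trim28 and Ago2), 2 were called higher in Aged + LRP1high than in Aged + LRP1low, beside 1.21% of all genes. The 2 were Zar1 (5.66), which binds maternal mRNA, and Npm2 (7.26), the nucleoplasmin of the egg. None of the 10 was called in the other oocyte comparisons.

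To find the genes most like the members over the 12 oocyte libraries, each gene's log2(FPKM + 1) was centred on its own mean and set against the mean centred profile of the 6 members. Likeness was the root mean square difference between both over the 12 libraries, so a smaller value is closer, with 4066 genes compared whose mean reached 10 FPKM. All libraries carry their share of oocyte RNA and depth into every gene, so this is a description of these libraries only. The closest gene outside the 6 was Nlrp4f, one of the 7 partners, at 0.37, with 0.479 FPKM in Young 1 and 448 in Aged + Unsorted 2. Mphosph6, an exosome cofactor, followed at 0.41, then Gm13023 at 0.46 and Sap18b at 0.47. Next were Eef1a1, the translation elongation factor, at 0.47, Tcl1b1 at 0.51, Gm13084 at 0.53 and Khdc1b at 0.53. The median over all genes compared was 2.11. Of the members themselves, which enter the profile, Ooep was closest to it at 0.63, then Padi6 at 0.72, Zbed3 at 0.85, Nlrp5 at 1.02, Tle6 at 1.09 and Khdc3 at 1.29. The 8 genes named were picked as the closest outside the 6, so their short distances follow from that choice. Among the 4066 genes compared, the members ranked 20 (Ooep), 37 (Padi6), 81 (Zbed3), 160 (Nlrp5), 194 (Tle6) and 360 (Khdc3). Skp1a, a partner with high FPKM, was at 2.37. Gm13023, Gm13084, Sap18b and Eef1a1 may have near-identical copies elsewhere in the genome, and their reads could be split between copies.

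**Figure D5:**
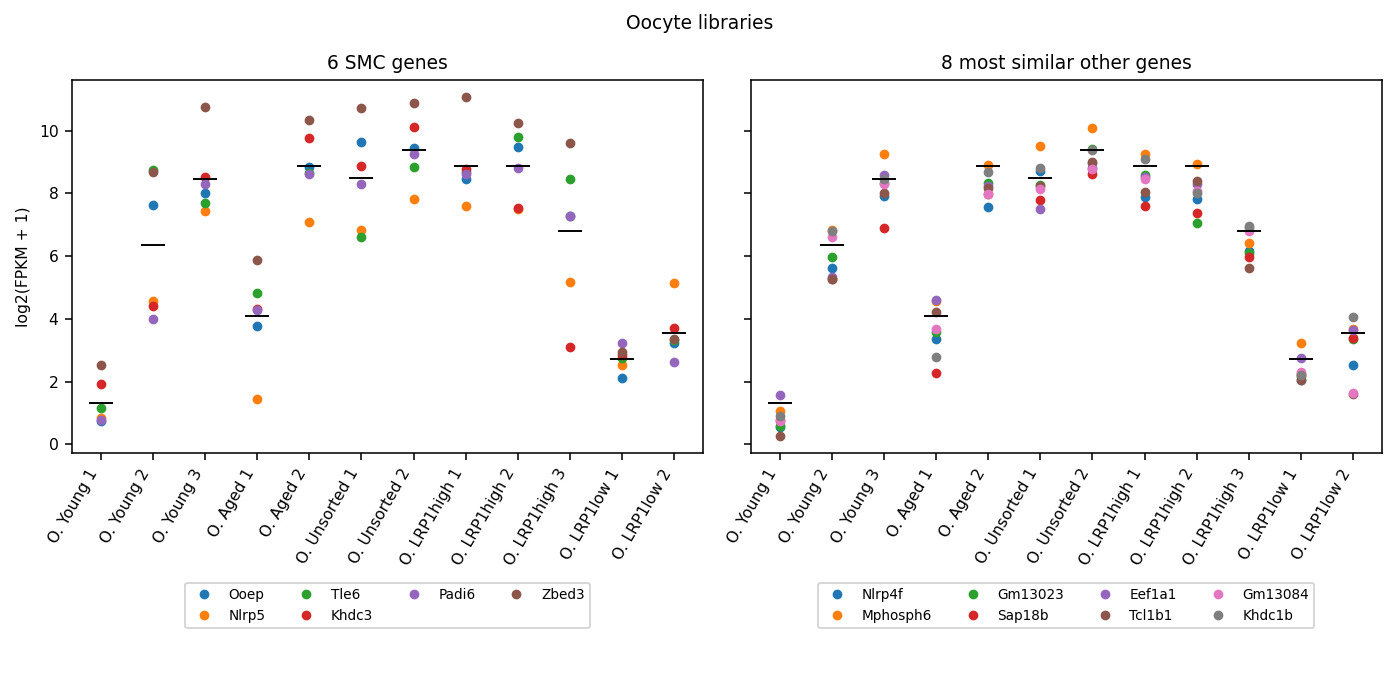
Level of the 6 SMC genes (left) and of the 8 genes most like their mean profile (right) in the 12 oocyte libraries, as log2(FPKM + 1). Black dashes in both panels mark the mean of the 6 SMC genes, and the genes on the right were picked for the likeness of their profile to it.

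Granulosa cells surround the oocyte and are not a known source of SMC proteins. In 8 of the 9 granulosa cell libraries, the members lay between 0 and 25.4 FPKM (median 0.596), and 12 of 48 values were listed at 0. Zbed3 had the highest FPKM of the 6 in 5 of these 8, at 18.5 FPKM in the Young library, 0 and 0 in the Aged libraries, 10.8, 0.553 and 2.38 in Aged + LRP1high, and 13.3 and 25.4 in Aged + LRP1low. Ooep was at 5.77 FPKM in the Young library, 0 and 0.234 in the Aged libraries, 3.16, 0.580 and 0.579 in Aged + LRP1high, and 0.836 and 0.912 in Aged + LRP1low. Nlrp5, Tle6, Khdc3 and Padi6 reached at most 1.92, 3.60, 1.98 and 2.76 FPKM in these 8 libraries. None of these values exceeded the highest marker of other cell types in its library. The library labelled Granulosa Aged + Unsorted was the exception, with 580.4 FPKM for Ooep, 186 for Nlrp5, 406 for Tle6, 1143 for Khdc3, 542 for Padi6 and 1489 for Zbed3. These were 0.799 to 1.02 times the values of Oocyte Aged + Unsorted 2. The order of the 6 by FPKM was also the same in both, with Zbed3 first, Khdc3 second and Nlrp5 last.

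All 6 members entered the granulosa cell test, Nlrp5, Tle6, Khdc3 and Padi6 only through that library, since without it Ooep and Zbed3 alone reached a mean of 1 FPKM. In Aged + LRP1high against Aged granulosa cells none of the 6 members and 0% of 13002 genes passed, and none of the 6 had an unadjusted p under 0.05, at which 7.99% of genes were higher. Ooep and Zbed3, the members that reached the filter without that library, were both above the 2 Aged libraries in the 3 Aged + LRP1high libraries, as were 50.4% of all genes tested. Ooep differed by 0.97 on the log2(FPKM + 1) scale (SE 0.54, adjusted p = 0.458 by limma), and for Zbed3, listed at 0 in both Aged libraries, no fold is given. In Aged + LRP1low against Aged granulosa cells, again none of the 6 and 0% of genes passed. Zbed3 was above the Aged libraries, which listed it at 0, in both Aged + LRP1low libraries (unadjusted p = 0.00457, adjusted p = 0.904 by limma), and 3.05% of genes were higher at an unadjusted p under 0.05. Ooep was also higher in both, and groups lay apart in the higher direction for 30.5% of all genes tested. Without the library that went against its label, adjusted p for Ooep and Zbed3 was 0.485 and 0.485 in Aged + LRP1high and 0.887 and 0.840 in Aged + LRP1low. Young and Aged + Unsorted had 1 granulosa cell library each and were not compared.

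Averaged over the 5 groups of each cell type, the 6 members were higher in oocytes than in granulosa cells. They were chosen as genes of an oocyte complex, so the choice favoured this direction. Nlrp5, Tle6, Khdc3 and Padi6 reached the filter only through the oocyte libraries and the granulosa cell library that went against its label. In Aged + Unsorted, that library was higher for these 4. In Aged + LRP1low the Zbed3 mean was 7.98 FPKM in oocytes and 19.4 in granulosa cells. All other group means were higher in oocytes. All 6 passed by limma with the 21 libraries in one fit and the 5 group means of each cell type weighted equally, beside 2.91% of 21767 genes called in that direction. The differences were 3.17 to 4.12 on the log2(FPKM + 1) scale, with adjusted p of 0.0246 to 0.0468, and were 3.17 for Nlrp5 and 4.12 for Tle6 at the ends. Groups overlapped for all 6 members, as the library labelled Granulosa Aged + Unsorted was high and 4 oocyte libraries were low. Without that library, all 6 passed at 4.52 to 5.70, with adjusted p of 0.00102 to 0.00260 by limma. The library was singled out for its oocyte levels, so larger differences were built into that choice. Nlrp5, Tle6, Khdc3 and Padi6 then reached the filter only through the oocyte libraries. The count depended on single libraries: 0 members passed without Oocyte Aged + LRP1low 1 or 2, Granulosa Aged 1 or 2, or Granulosa Aged + LRP1low 1. Without Oocyte Aged + Unsorted 1 or Granulosa Aged + LRP1high 2 it was 1, without Oocyte Aged + Unsorted 2, Oocyte Aged + LRP1high 1 or 2 or Granulosa Aged + LRP1high 3 it was 2, and without Granulosa Aged + LRP1low 2 it was 3. The share of all genes called in each of these fits is not given here, so these counts describe the members only. Of the oocyte markers, 6 of 8 were called higher in oocytes, as were 2 of 7 partners, Nlrp14 (3.81) and Uhrf1 (3.22). Paralogs called higher were Khdc1a (2.73), Khdc1b (3.67) and Khdc1c (2.69), 3 of 13 tested, and maternal-effect genes called higher were Btg4 (4.93), Npm2 (4.19), Zar1 (3.53) and Tet3 (3.06), 4 of 10.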

How the data were processed

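RNA of 12 oocyte and 9 granulosa cell libraries was analysed from 1 deposited table per library. Per the labels, the authors aligned reads with HISAT2 2.2.1 and computed StringTie 1.3.3b abundances. For each gene the authors deposited coverage (mean read depth), FPKM and TPM, with no counts. The labels name the mm9 build, but 54577 of 55335 identifiers have the GRCm38 coordinates of the GENCODE annotation. The labels name a stranded kit and the study's methods Smart-seq2, so strand use is unknown. Repeated identifiers (4 to 21 per file) were summed.

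Deposited FPKM were tested as log2(FPKM + 1) with limma 3.58.1 in R 4.3.3, with the groups of each cell type fitted together, for genes whose mean FPKM reached 1, with Benjamini-Hochberg adjustment over all genes tested. A call needed a fold over 1.5 and an adjusted p under 0.05. The script was run on simulated data with a smaller spread than these libraries and large planted changes, so that run does not measure detection here. Library depth was the highest ratio of coverage to FPKM over genes of at least 1 FPKM. Deposited TPM, another pseudocount, no filter, quantile normalization, oocyte marker scaling, other fits, coverage per gigabase and leaving out libraries were alternatives.

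Groups came from the labels. Genes named are the 6 members, the listed partners, paralogs, maternal-effect genes and markers, and the 8 genes most like the members. The members and lists were chosen with earlier results of these data known.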

Additional observations from a re-analysis of the deposited data

Results flagged for a closer look

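For Ooep and Zbed3, which were singled out for this pattern, both Aged + LRP1low libraries lay below both Aged libraries in oocytes and above them in granulosa cells, and neither gene passed the test in either cell type. Taken singly, the first held for 9.55% of genes tested in oocytes and the second for 30.5% of genes tested in granulosa cells. The share of genes with both was not computed. Since the genes were picked by this pattern, the p-values that follow are descriptive. The oocyte change minus the granulosa cell change was -4.40 for Ooep (SE 2.58, adjusted p = 0.872 by limma) and -9.24 for Zbed3 (SE 2.63, unadjusted p = 0.00263, adjusted p = 0.399), so neither difference passed over 21767 genes, of which 0 passed. Zbed3 was listed at 0 in both Granulosa Aged libraries and Ooep at 0 and 0.234 FPKM, so these differences on the log2(FPKM + 1) scale are not folds. Relative to oocyte markers the oocyte value of Ooep was 0.38, above 0.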

How the results depend on the processing

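Of 141 recomputed counts of members called, 107 stayed within 1.5 times the reported count and 34 did not. Except by unadjusted p, the share of all genes called under each setting is not given here. These counts therefore cannot tell a shift of the members from a shift of all genes. In Aged + LRP1high vs Aged + LRP1low oocytes, where 2 were reported, the count was 0 with a pseudocount of 0.1 and relative to oocyte markers, 1 with no filter, with quantile normalization and with coverage per aligned gigabase, 4 without Young 1 and Aged 1, with the compared groups only and by unadjusted p, and 0 whichever of its 5 libraries was left out. In Oocytes vs granulosa cells, where 6 were reported, it was 2 with no filter and with quantile normalization, 0 with the trend and robust settings of eBayes, 3 with coverage per aligned gigabase, and 0 to 6 when single libraries were left out. In Aged + LRP1low vs Aged, where 0 were reported, it was 1 by unadjusted p in oocytes and 1 by unadjusted p in granulosa cells. For oocytes without Young 1 and Aged 1 no count is given, since 1 Aged library remains. The alternative without 4 marker-poor oocyte libraries and the Granulosa Aged + Unsorted library kept 6 in Oocytes vs granulosa cells, but chose libraries by their oocyte markers, so it is a description. Coverage and the fits without doubted libraries were added after the data were seen.

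For single members, 606 recomputed changes kept their direction and side of the threshold, 104 lost a call, 9 gained one and 61 turned direction, 1 of them a called change, Tle6 in Aged + LRP1high vs Aged + LRP1low oocytes relative to oocyte markers. Relative to oocyte markers, values turned to -0.41 for Ooep, -0.38 for Tle6 and -0.47 for Zbed3 in Aged vs Young oocytes, -0.12 for Nlrp5, -2.18 for Tle6, -0.71 for Khdc3, -0.83 for Padi6 and -0.49 for Zbed3 in Aged + Unsorted vs Aged oocytes, -0.35 for Ooep, -0.21 for Tle6, -0.65 for Padi6 and -0.24 for Zbed3 in Aged + LRP1high vs Aged oocytes, 0.38 for Ooep, 3.57 for Nlrp5, 0.31 for Tle6, 0.26 for Khdc3 and 0.52 for Padi6 in Aged + LRP1low vs Aged oocytes, and -0.72 for Ooep, -3.54 for Nlrp5, -0.52 for Tle6, -3.27 for Khdc3 and -1.17 for Padi6 in Aged + LRP1high vs Aged + LRP1low oocytes. Without Young 1 and Aged 1 they were 1.09 for Nlrp5 in Aged vs Young oocytes, -0.92 for Tle6 and -0.27 for Khdc3 in Aged + Unsorted vs Aged oocytes, and -0.44 for Ooep, -0.35 for Nlrp5, -0.37 for Padi6 and -0.043 for Zbed3 in Aged + LRP1high vs Aged oocytes. With quantile normalization they were -0.040 for Tle6 in Aged + Unsorted vs Aged oocytes, 0.75 for Nlrp5 in Aged + LRP1low vs Aged oocytes, -0.046 for Nlrp5 and -0.18 for Khdc3 in Aged + LRP1high vs Aged granulosa cells, and -0.29 for Nlrp5 in Aged + LRP1low vs Aged granulosa cells, and with a pseudocount of 0.1 the value was 0.046 for Nlrp5 in Aged vs Young oocytes. When single libraries were left out, members that turned had ranges of -1.68 to 3.39 for Ooep, -1.48 to 2.78 for Tle6, -1.61 to 3.03 for Zbed3, -2.84 to 2.81 for Nlrp5, -0.63 to 4.83 for Khdc3 and -0.073 to 4.26 for Padi6 in Aged vs Young oocytes, -0.92 to 2.89 for Tle6 and -0.27 to 5.19 for Khdc3 in Aged + Unsorted vs Aged oocytes, -0.44 to 4.63 for Ooep, -0.35 to 5.29 for Nlrp5, -0.37 to 3.96 for Padi6, -0.043 to 4.43 for Zbed3 and -3.31 to 2.15 for Khdc3 in Aged + LRP1high vs Aged oocytes, -3.27 to 2.37 for Nlrp5 in Aged + LRP1low vs Aged oocytes, -0.22 to 0.47 for Nlrp5 and -0.25 to 1.32 for Khdc3 in Aged + LRP1low vs Aged granulosa cells. The cause was not tested.

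Whether replicate numbers pair the libraries could not be decided. Deviations correlated above 0.1 in 4 of 21 same-numbered oocyte pairs and 1 of 6 granulosa pairs. In the smallest groups compared, the deviations of the libraries mirror each other, so these pairs are not independent. The count to be expected without pairing is not given here. With the replicate block, 0 members were called in Aged + LRP1high vs Aged + LRP1low oocytes and 0 in Oocytes vs granulosa cells, and the value was 0.38 for Nlrp5 in Aged vs Young oocytes. Counts in the other comparisons stayed at 0 with the block. Depths down to 0.278 gigabases and 1 to 3 libraries per group limit what can be detected.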

Other observations

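An intron of Zbed3 hosts Snora47, a small nucleolar RNA that guides modification of ribosomal RNA. It was listed at 3943 FPKM in Oocyte Aged + Unsorted 1, 264 in Aged + Unsorted 2 and 255 in Aged 2. In the 3 Aged + LRP1high libraries it was at 13.2, 19.9 and 90.3, and in the Young libraries at 1.75, 3.48 and 15.5, while its host Zbed3 was at 1717 FPKM in Young 3 and 1675 in Aged + Unsorted 1. Aged 1 listed it at 0, and the Aged + LRP1low libraries at 6.25 and 11.2. The library labelled Granulosa Aged + Unsorted had 215. These values come from a gene chosen after its values were seen.

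Young 2, a library rich in oocyte markers, split the members. Tle6, Zbed3 and Ooep were at 432, 411 and 196 FPKM, and Nlrp5, Khdc3 and Padi6 at 22.9, 20.2 and 14.8. The same library held 27169 FPKM of Skp1a, the highest of the 12 oocyte libraries, and had 3135 genes at 1 FPKM or more, the fewest of the 12.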
